A study of Mus musculus with 3 samples.

Results

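CTLA-4-Ig (abatacept) was compared with human IgG (hIgG) in cultured mouse synovial cells, with 1 array for each protein and the signal of a vehicle array beside both. A probe was kept when its normalized signal was at least 25 on the CTLA-4-Ig array and on the hIgG array. Of the 23473 probes, 9508 were kept and 8640 of these were named, standing for 8379 of the 19316 genes named on the array. The value of 25 is the median to which the signals of the detected spots of each array were scaled, so that signals are scaled units on a linear scale. Each difference is given as the log2 ratio of 2 signals.

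The cells came from the pannus of D1BC mice with arthritis induced by bovine type II collagen. D1BC mice are DBA/1 mice with a B7.1 (Cd80) transgene driven by the promoter and enhancer of rat type II collagen, and all 3 cultures shared this background. Both CD45+ macrophages and CD45- cells, the fibroblast-like synoviocytes (FLSs), were in the cultures, although the labels call them FLSs. They received abatacept, human IgG or vehicle, which was culture medium with fetal bovine serum, for 48 h. The dose of both proteins is 100 ug in the sample titles, 100 mg/ml in the treatment protocol of the labels and 100 ug/ml in the methods. The mice were 7 to 8 weeks old when they entered the arthritis protocol. Their age at harvest and their number are not given in the sources used here, and neither is whether the 3 cultures came from the same mice. Each condition had 1 array, so that no test was possible, and a ratio holds any difference between the cultures as well as the effect of a protein. The number of arrays limits the precision.

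T cells need a second signal through CD28, which CD80 and CD86 on antigen-presenting cells provide. Abatacept is a soluble decoy that occupies these ligands, and it ends in a human IgG1 Fc part with mutations. Human IgG serves as a control protein, but its Fc region is a ligand of Fc gamma receptors on macrophages. Interferons act on neighbouring cells through cell-surface receptors, and the signal ends at the interferon-stimulated response element (ISRE), a promoter motif of antiviral genes. In the arthritic joint, macrophages are a source of chemokines and cytokines, while FLSs make the matrix, lubricate the joint and can take on a contractile form.

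Markers of macrophages and of FLSs were present. Of 30 macrophage markers 26 were kept, and their summed signal was 88998 on CTLA-4-Ig, 84794 on hIgG and 76385 with vehicle. Of 26 FLS markers 22 were kept, with sums of 48938, 44623 and 46993. Of 14 T cell markers with a probe 3 were kept, Il7r, Foxp3 and Thy1, at log2 ratios of 0.16, 0.03 and 0.31, and the sums were 820, 693 and 750. Thy1 is also made by fibroblasts. The defining genes Cd3e and Cd3g of the T-cell receptor complex were undetected on all 3 arrays. Of 10 markers of B and plasma cells only Sdc1 was kept (0.09), the sums were 134, 126 and 131, and Ms4a1 of B cells had 1.10, 1.30 and 1.2. The part of lymphocytes in any ratio was not tested. In a mixture of cells, fewer cells of a type and less RNA per cell cannot be told apart.

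The arrays of CTLA-4-Ig and hIgG differed little over most genes. Over the kept probes the CTLA-4-Ig to hIgG log2 ratio had a median of 0.06 and a standard deviation (SD) of 0.18, and 85.8% of the probes lay within 1.2-fold of equality. The SD between CTLA-4-Ig and vehicle was 0.19, and that between hIgG and vehicle, the controls, was 0.17. At least 2-fold, 5 probes were higher on CTLA-4-Ig (0.0526% of the kept probes) and 2 were lower (0.021%). At least 1.5-fold, 58 were higher (0.61%) and 38 were lower (0.4%). These shares are the background against which the counts within groups of genes are read. The higher probes stood for 54 named genes and the lower for 35, while 4 and 3 probes were not named here. With the median ratio set to 0, 35 probes were 1.5-fold higher and 55 lower, so that the excess of higher over lower probes turned with the centring. Quantile normalization gave 36 and 52, and scaling by the 75th percentile 34 and 54. On each side of the minimum, Ascc1 was just inside with signals of 27.2 on CTLA-4-Ig and 25 on hIgG (log2 ratio 0.12), and Brat1 just outside with 24.9 and 26.4 (-0.08).

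**Figure D1:**
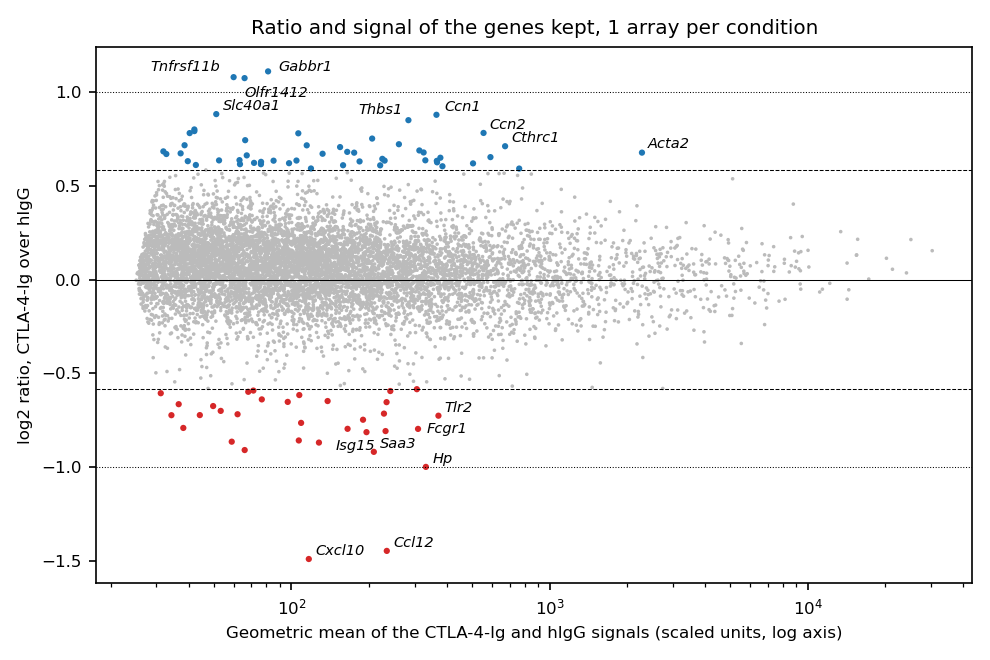
Log2 ratio of CTLA-4-Ig to hIgG against the geometric mean of both signals on a log axis, 1 point per gene for the 8379 genes kept. Dashed lines mark 1.5-fold and dotted lines 2-fold, blue genes were higher on CTLA-4-Ig by 1.5-fold or more and red genes lower, and Cxcl10 (-1.49) and Ccl12 (-1.45) lie furthest from 0.

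Interferon-inducible chemokines were the genes furthest below hIgG. Cxcl10, a chemokine that draws CXCR3-bearing T cells, reached 69.7 on CTLA-4-Ig, 196 on hIgG and 101 with vehicle, a log2 ratio to hIgG of -1.49. Ccl12, a monocyte chemokine of the mouse, had 142, 387 and 154 (-1.45). For Ccl12 the CTLA-4-Ig and vehicle signals were alike and hIgG stood alone, whereas for Cxcl10 vehicle lay between both proteins. Cxcl11, another CXCR3 ligand, was left out by the signal minimum, with 16.4 on CTLA-4-Ig, 43.5 on hIgG and 20.3 with vehicle. The acute phase genes followed. Hp (haptoglobin, which binds free haemoglobin) had 235, 469 and 242, a log2 ratio of -1.0 just short of 2-fold. Saa3, the serum amyloid A that mouse macrophages and fibroblasts make, had 152, 287 and 152 (-0.92). Both were about level between CTLA-4-Ig and vehicle.

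The acute phase and iron-binding genes did not share this as a list. Of 24 on the list 13 were kept, Hp and Saa3 among them, with a median of 0.06 beside 0.06 for all genes. Below the median of all genes lay 8 of the 13. Lcn2, an iron-siderophore binding protein, had 36.8, 42.0 and 36.1 (-0.19), and Cd14, the endotoxin co-receptor, had 1937, 2458 and 2158 (-0.34). Slc40a1 (ferroportin, the exporter of cellular iron) went the other way, with 69.5 on CTLA-4-Ig, 37.7 on hIgG and 49.1 with vehicle (0.88). Its vehicle signal lay between the proteins. Fth1 and Ftl1, the ferritin chains, lay at 0.04 and 0.11.

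As a group, antiviral effector genes were lower on CTLA-4-Ig. Of 46 on the list, 39 had a probe and 32 were kept, and their median log2 ratio was -0.46 beside 0.06 for all genes. Of the 32, 31 lay below the median of all genes, and 11 were at least 1.5-fold lower, against 0.4% of all probes, and 0 at least 1.5-fold higher. Relative to vehicle their median was -0.07 on CTLA-4-Ig and 0.36 on hIgG. In 24 of the 32 it was the hIgG signal that lay further from vehicle, and the share over all genes was not computed. With a normexp background correction, the median was -0.01. That correction uses a background column whose log2 values followed those of the spots (Pearson's r from 0.99 to 0.997 over the spots of an array), and it drew most list medians close to 0.

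Within the list the departure from vehicle took more than 1 form. Cmpk2, a mitochondrial nucleotide kinase, reached 48.1 on CTLA-4-Ig, 90.4 on hIgG and 66.4 with vehicle (-0.91 to hIgG). Ifit1, which binds foreign RNA lacking cap methylation, had 94.6, 173 and 143 (-0.87), and its partner Ifit3 had 83.7, 142 and 111 (-0.76). For these genes vehicle lay between the proteins, with CTLA-4-Ig below vehicle and hIgG above it. Isg15, a ubiquitin-like modifier, had 175, 307 and 205 (-0.81). Ifi44l had 147, 259 and 154 (-0.81), and Phf11b had 146, 246 and 166 (-0.75). For Ifi44l and Phf11b the vehicle signal lay within 1.2-fold of CTLA-4-Ig, and hIgG stood apart. Rsad2 (viperin, a radical enzyme that makes an antiviral nucleotide) had 178, 293 and 235 (-0.72), and vehicle lay between. The genes with the least difference were Ifi27 (0.13), Zbp1 (0.04) and Ifitm2 (0.00).

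Rsad2 and Cmpk2 are neighbours on the chromosome, and so are Ifit3 and Ifit1, so that these genes are not separate observations in position. The promoters of Cxcl10, Ifit1, Ifit3, Isg15 and Rsad2 are shown because these genes differed between the arrays and hold a match to the ISRE. Each run covers 250 bases before and 50 after the start of the gene in RefSeq (GRCm38.p6), 5′ to 3′ on the strand of the gene, and capitals mark matches to GAAANNGAAA or, on the other strand, its reverse complement. The 3 matches of Isg15 overlap and form 1 stretch.
Cxcl10, chr5:92348840-92349139, minus strand: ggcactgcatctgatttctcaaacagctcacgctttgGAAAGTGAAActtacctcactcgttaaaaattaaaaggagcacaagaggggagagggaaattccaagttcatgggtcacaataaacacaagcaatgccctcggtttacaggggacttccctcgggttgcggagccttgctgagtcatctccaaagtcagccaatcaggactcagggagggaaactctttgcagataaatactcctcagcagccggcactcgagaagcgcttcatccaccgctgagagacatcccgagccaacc
Ifit1, chr19:34640639-34640938, plus strand: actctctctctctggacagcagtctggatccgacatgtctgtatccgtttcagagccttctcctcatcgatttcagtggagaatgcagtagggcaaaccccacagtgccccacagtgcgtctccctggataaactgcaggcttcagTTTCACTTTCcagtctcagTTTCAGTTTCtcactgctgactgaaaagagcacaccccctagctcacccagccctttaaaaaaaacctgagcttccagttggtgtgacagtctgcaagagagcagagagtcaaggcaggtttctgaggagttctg
Ifit3, chr19:34583279-34583578, plus strand: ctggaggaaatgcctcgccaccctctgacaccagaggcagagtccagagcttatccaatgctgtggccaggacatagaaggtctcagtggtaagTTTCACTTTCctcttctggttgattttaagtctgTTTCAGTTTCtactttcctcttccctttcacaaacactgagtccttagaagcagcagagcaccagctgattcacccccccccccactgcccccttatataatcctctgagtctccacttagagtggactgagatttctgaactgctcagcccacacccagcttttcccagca
Isg15, chr4:156200769-156201068, minus strand: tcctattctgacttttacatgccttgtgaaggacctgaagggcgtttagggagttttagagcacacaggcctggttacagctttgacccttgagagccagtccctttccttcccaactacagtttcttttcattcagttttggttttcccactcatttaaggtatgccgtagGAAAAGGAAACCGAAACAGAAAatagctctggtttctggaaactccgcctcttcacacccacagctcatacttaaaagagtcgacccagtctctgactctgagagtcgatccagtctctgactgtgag
Rsad2, chr12:26456403-26456702, minus strand: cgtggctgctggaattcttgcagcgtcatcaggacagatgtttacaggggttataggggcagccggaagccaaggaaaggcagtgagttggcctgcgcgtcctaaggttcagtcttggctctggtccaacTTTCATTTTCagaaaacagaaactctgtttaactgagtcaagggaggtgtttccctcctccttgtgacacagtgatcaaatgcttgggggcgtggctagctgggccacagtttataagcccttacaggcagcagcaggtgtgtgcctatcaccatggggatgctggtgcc

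The ISRE letters were searched on both strands of every promoter of this length. Of the 35 named genes 1.5-fold lower on CTLA-4-Ig, 27 had a promoter in the RefSeq table and 11 of these held a match (40.7%), compared with 258 of the 6678 kept genes with a promoter (3.86%) and 1079 of all 27025 promoters (3.99%). Of the 54 genes 1.5-fold higher, 37 had a promoter and 0 held a match. Besides the 5 genes shown, Ifih1, Igtp, Oas1g, Phf11b, Saa3 and Trim30a held one. Cmpk2, Ccl12, Fcgr1 and Ifi44l held none in this window. With the probes of a gene averaged, 10 of the 258 kept genes with a match were 1.5-fold lower and 0 higher. Of the 6420 kept genes without one, 15 were lower and 36 higher. Below the median of all genes lay 56.2% of those with a match and 49.6% of those without. The 258 kept genes with a match had a median of 0.04, and the 233 of them outside the interferon lists 0.05, whereas the 25 on those lists had -0.45. An AP-1 match (TGANTCA) was found in 6 of the 27 lower genes (22.2%) and 6 of the 37 higher genes (16.2%), beside 6.59% of kept genes. A kB match (GGGANTTTCC) was found in 0 of the 27 lower genes and in 1 of the 37 higher genes, Cxcl2, beside 0.494% of kept genes. For AP-1 and kB only these letters were searched, and looser forms were not, so that a gene without a match may hold a looser one. A match is a description of letters and not a site.

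**Figure D2:**
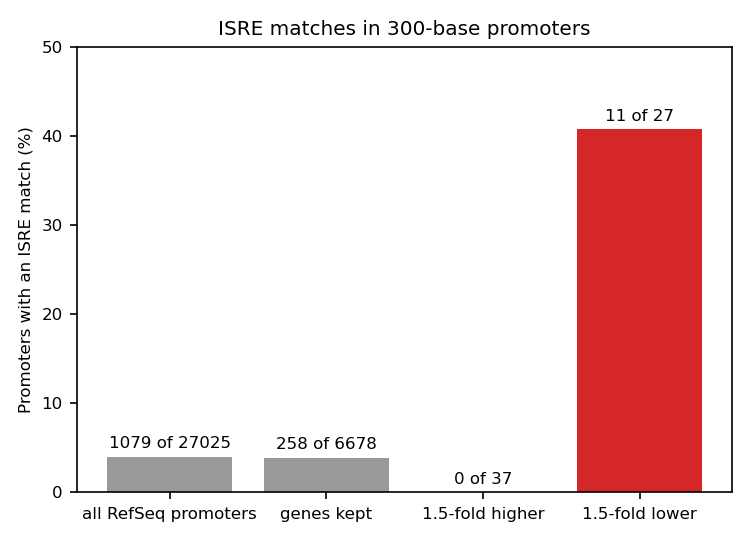
Percent of promoters that hold an ISRE match, for all RefSeq promoters, for the genes kept and for the genes higher or lower on CTLA-4-Ig by 1.5-fold or more, with the number of promoters above each bar. The share was 40.7% for the lower genes and 3.86% for the genes kept.

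The sensors that lie upstream of interferon and the signalling proteins that lie downstream of it differed less than the effectors. Of 31 on that list 23 were kept, with a median of -0.06. Ifih1 (MDA5, a sensor of long double-stranded RNA) had 43.5 on CTLA-4-Ig, 79.3 on hIgG and 55.7 with vehicle (-0.87) and was the only member 1.5-fold apart. The RNA sensors Dhx58 (-0.47) and Ddx58 (-0.42) and the transcription factors Irf1 (-0.38) and Irf7 (-0.36) were lower by less, and Stat2 had -0.26. The receptor chains of interferon lay closer to equality, with Ifngr2 at -0.07, Ifnar1 at 0.01, Ifnar2 at 0.13 and Ifngr1 at 0.22. Of the interferons themselves, Ifng had signals of 3.72, 2.60 and 2.60, and Ifnb1 had 3.46, 4.10 and 3.30, all below the minimum. The probes named Ifna1, Ifna5 and Ifna14 were kept and were about level, at 0.03, -0.05 and 0.02. Whether these probes measure those genes alone was not tested.

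Interferon-inducible GTPases, which act on vacuoles that hold pathogens, had a median of -0.45 over the 7 of 18 that were kept (0.01 with the normexp correction). Iigp1 had 79.4, 144 and 110 (-0.86), with vehicle between the proteins. Igtp was measured by 2 probes, which had log2 ratios of -0.59 and -0.52. Ifi47, a GTPase of the same family outside the list, had 125, 218 and 169 (-0.80). Cytosolic and nuclear DNA sensors of the PYHIN family were lower as well, with a median of -0.37 and all 5 kept genes below the median of all genes. Among these Ifi207 had 480, 642 and 500 (-0.42) and Ifi211 552, 667 and 592 (-0.27). None of the 5 was 1.5-fold apart.

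Antigen presentation did not follow as a group. Of 18 kept genes of MHC class I presentation, 14 lay below the median of all genes, and the list median was -0.06. H2-T24, a non-classical class I gene, had 61.6, 95.9 and 58.0 (-0.64) and was the only one 1.5-fold apart. Its CTLA-4-Ig and vehicle signals were within 1.2-fold of each other. The bright classical gene H2-K1 had 5033, 4878 and 4442 (0.05), and B2m, the light chain, 6746, 6551 and 6108 (0.04). The proteasome subunits named Psmb had a median of -0.13 (-0.04 with normexp), with all 10 below the median of all genes, a count that was 9 with quantile normalization. The lowest was Psmb10, an interferon-inducible catalytic subunit, with 328, 473 and 363 (-0.53). Psmb8, another such subunit, had 1070.1, 1072 and 713 (0.00), so that both proteins lay above vehicle. Of 14 genes of MHC class II presentation 4 were kept, and H2-Aa and Cd74, which encode a class II chain and the invariant chain, stayed below the minimum with 17.8 and 5.13 on CTLA-4-Ig.

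**Figure D3:**
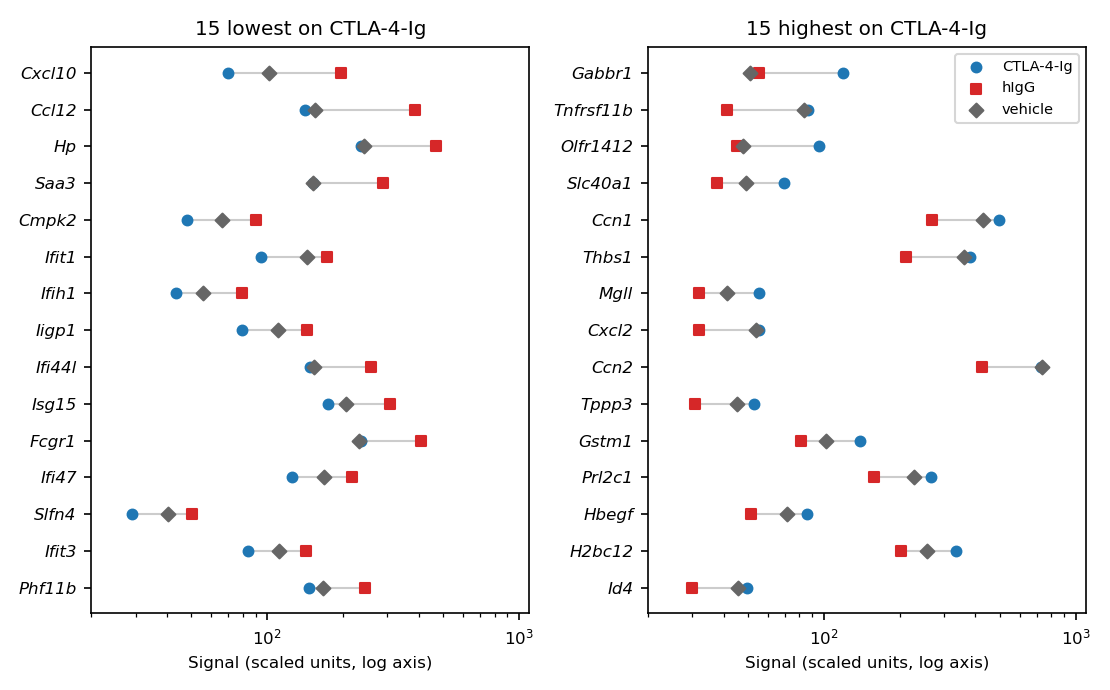
Signals on all 3 arrays, on a log axis, for the 15 genes lowest and the 15 highest on CTLA-4-Ig relative to hIgG, 1 point per array and no replicates. The vehicle point lies on or beside the CTLA-4-Ig point for Ccl12, Hp, Saa3, Fcgr1, Tnfrsf11b and Ccn2, and beside the hIgG point for Gabbr1 and Olfr1412.

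Receptors of IgG were examined since both proteins carry a human Fc region. Fcgr1, the high-affinity receptor for IgG, was the only one of 18 kept genes on that list 1.5-fold apart. It had 235 on CTLA-4-Ig, 408 on hIgG and 231 with vehicle (-0.80), so that CTLA-4-Ig and vehicle were level and hIgG was higher. The other receptors were close to equality. Fcgr3 had 1785, 1773 and 1654 (0.01), Fcgr2b, the inhibitory receptor, 505, 554 and 512 (-0.13), and Fcer1g, the shared signalling chain, 3747, 4157 and 3947 (-0.15). Fcgrt, the neonatal receptor that recycles IgG, was higher on CTLA-4-Ig with 316, 243 and 283 (0.38). The list median was -0.11 (-0.05 with normexp), and 13 of the 18 lay below the median of all genes. Fcgr1 is itself inducible by interferon.

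Genes of co-stimulation were mostly dim. Of 26 on the list 8 were kept, with a median of 0.25 beside 0.06 for all genes (-0.03 with the normexp correction). Cd80, the ligand of CTLA-4, had 2 probes. One had 66.3 on CTLA-4-Ig, 46.2 on hIgG and 61.0 with vehicle (0.52), and the other 41.9, 25.8 and 37.8 (0.70). Both gave the same order, with CTLA-4-Ig and vehicle within 1.2-fold of each other and hIgG below them. Whether these probes measure transcript of the Cd80 transgene besides that of the endogenous gene was not tested. Cd28, the activating receptor for the same ligands, had 89.0, 57.8 and 77.3 (0.62 to hIgG, -0.19 with normexp). Cd40, a receptor of macrophages for T-cell help, had 38.5, 51.8 and 37.5 (-0.43). For Cd80, Cd28 and Cd40 alike, hIgG was the array further from vehicle. Cd274 (PD-L1), a partner of CD80, had 29.8, 25.7 and 28.1 (0.21). Btla and Lgals9, an inhibitory receptor and a galectin, had 0.33 and 0.28, and Tnfsf9 and Havcr2 lay at -0.11 and 0.00. Cd86, the other ligand, had 14.9, 14.3 and 11.1, and Ctla4 had 2.39, 1.30 and 1.30, all below the minimum. Genes of clathrin and dynamin endocytosis, by which receptors are taken up, had a median of -0.00 over 21 kept, with 0 of them 1.5-fold apart. The lowest was Dab2, a clathrin adaptor, with 322, 433 and 457 (-0.43), and the highest Cltb with 95, 72.6 and 71.1 (0.39).

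Among other genes of macrophages and inflammation, Tlr2, a receptor of bacterial lipoproteins, had 289 on CTLA-4-Ig, 478 on hIgG and 385 with vehicle (-0.73). Cx3cr1, the fractalkine receptor, had 48.2, 79.4 and 51.5 (-0.72), and Clec4e (Mincle, a receptor of mycobacterial glycolipid) 41.8, 67.9 and 43.5 (-0.70). Vehicle matched CTLA-4-Ig for Cx3cr1 and Clec4e but lay between the proteins for Tlr2. Macrophage markers as a list were not lower in this way. Their 26 kept genes had a median of -0.05, with 11 above and 15 below the median of all genes, and 2 of them, Fcgr1 and Cx3cr1, 1.5-fold lower. Cd68 had 2843, 2338 and 2015 (0.28), and Adgre1 (F4/80) 589, 554 and 463 (0.09). The macrophage sums were higher on both proteins than on vehicle, whereas the FLS sum was lowest on hIgG, and the part of cell composition in any ratio was not tested.

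Chemokines lay on both sides. Beside Cxcl10 and Ccl12, Cxcl2, a neutrophil chemokine, was higher on CTLA-4-Ig with 55.4, 32.0 and 53.9 (0.79), and Ccl6 with 147, 89.5 and 109 (0.72). For Cxcl2 the vehicle signal was level with CTLA-4-Ig and hIgG was lower. The bright monocyte chemokines Ccl2 and Ccl7 had 3549, 4472 and 3353 (-0.33) and 1498, 1405 and 1302 (0.09). The 14 kept CXC genes had a median of -0.08 and the 11 kept CC genes -0.01. Genes of NF-kB signalling had a median of -0.12 over 18 kept, which was 0.11 among those with a signal of at least 100. Traf1, an adaptor of TNF receptors, was the only one 1.5-fold apart, with 26.7, 44.1 and 32.8 (-0.72). Il6 was level at 40.9, 40.6 and 42.7 (0.01). The interleukins and their receptors had a median of 0.09 with 0 of 21 kept genes 1.5-fold apart, and the highest was Il11 with 38.2, 26.8 and 31.6 (0.51).

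On the other side, the secreted inhibitor of osteoclast formation was among the genes furthest above hIgG. Tnfrsf11b (osteoprotegerin, the decoy receptor of RANKL) had 86.9 on CTLA-4-Ig, 41.1 on hIgG and 83.5 with vehicle, a log2 ratio of 1.08 to hIgG (-0.01 with the normexp correction). Vehicle was level with CTLA-4-Ig, so that hIgG stood alone. Tnfsf11 (RANKL) itself had 92.2, 118 and 107 (-0.36). Gabbr1, which encodes one chain of the GABA-B receptor, had 119, 55.3 and 51.0 (1.11), and Olfr1412, an olfactory receptor, 95.6, 45.4 and 47.8 (1.07). Here it was CTLA-4-Ig that stood alone and the controls that were level. The other 2 probes at least 2-fold higher were not named here and had log2 ratios of 1.05 and 1.02.

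Among the genes 1.5-fold higher on CTLA-4-Ig, 5 were on the proteoglycan and matricellular list and 2 on the contractile list. Ccn1, a target of YAP and serum response factor, had 495 on CTLA-4-Ig, 269 on hIgG and 431 with vehicle (0.88). Thbs1 (thrombospondin, an activator of latent TGF-beta) had 381, 212 and 361 (0.85), and Ccn2 (connective tissue growth factor) 728, 423 and 735 (0.78). Ccn3 had 412, 265 and 416 (0.64). In all of these vehicle lay within 1.2-fold of CTLA-4-Ig and hIgG was lower. Prelp, a small proteoglycan, had 121, 79.0 and 155 (0.62), with vehicle above both proteins. The list of proteoglycans, hyaluronan enzymes and matricellular proteins had a median of 0.24 over 26 kept genes (0.09 with normexp), of which 22 lay above that of all genes and 5 were 1.5-fold higher, against 0.61% of all probes. Relative to vehicle its median was 0.03 on CTLA-4-Ig and -0.25 on hIgG. Fn1 (fibronectin) had 10114, 7652 and 8241 (0.40), Prg4 (lubricin) 6103, 5053 and 5528 (0.27), and Lum and Aspn, small proteoglycans, -0.14 and -0.24.

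All 16 kept genes of the contractile list lay above the median of all genes, with a median of 0.29 (0.02 with normexp). Acta2 (smooth muscle actin, the mark of the myofibroblast) had 2884, 1804 and 2681 (0.68), and Tagln (transgelin, an actin-binding protein) 473, 302 and 508 (0.65). Only these were 1.5-fold apart. Cnn2 had 1033, 699.5 and 908 (0.56), Cald1 79.2, 54.3 and 72.4 (0.54) and Vcl 539, 412 and 621 (0.39). In 11 of the 16 the hIgG signal was further from vehicle, a count for which the share over all genes was not computed. The list medians were 0.05 for CTLA-4-Ig and -0.33 for hIgG over vehicle. A CArG box, the motif of serum response factor, was searched on both strands in its strict form, with only A and T between the flanking bases. It was matched in the promoters of 3 of 14 of these genes (21.4%), compared with 1.59% of kept genes, and looser forms were not searched. Acta2 was not among the 3. Of the 37 genes 1.5-fold higher with a promoter only H2bc22 held a match (2.70%), and Ccn1 held none. Of the 27 lower genes 0 held one. Acta2 and Tagln also mark pericytes and smooth muscle. Of 14 markers of those cells 5 were kept, all 5 above the median of all genes with a median of 0.22, and the sums were 3654 on CTLA-4-Ig, 2364 on hIgG and 3473 with vehicle. Acta2 made up most of these sums. Besides Acta2 and Tagln the kept markers were Cspg4 (0.22), Pdgfrb (0.15) and Mcam (0.13). Rgs5, Myh11 and Des, which were not kept, had signals of 3.76, 3.93 and 1.43 on CTLA-4-Ig and 3.70, 2.40 and 1.10 on hIgG. The part of these cells in the contractile values was not tested.

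Collagen genes lay mostly above the median of all genes. The 15 of 38 collagen chains that were kept had a median of 0.26 (0.01 with normexp), 13 of them above the median of all genes and 0 of them 1.5-fold apart. Col12a1 (0.34) and Col1a1 (0.32) were highest, whereas Col3a1, with 1925, 2094 and 1768, lay at -0.12. Among 25 kept genes of collagen processing and elastic fibres the median was 0.16, and Ltbp1, which tethers latent TGF-beta to the matrix, was highest with 102, 70.9 and 106 (0.52). TGF-beta and BMP genes had a median of 0.21 over 26 kept (-0.00 with normexp). Grem1, a BMP antagonist, had 167, 105 and 115 (0.67), with vehicle nearer to hIgG, and Id4, a target of BMP signalling, 49.5, 30.1 and 45.8 (0.72), with vehicle nearer to CTLA-4-Ig. Wnt genes had a median of 0.30 over 9 kept (0.00 with normexp), between Dkk3 at 0.48 and the antagonist Sfrp4 at -0.39.

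No kept matrix metalloprotease was 1.5-fold apart in the values as deposited. Mmp3 fell just short of that limit, and setting the median ratio of 0.06 to 0 takes it past. The 12 kept metalloproteases and inhibitors had a median of 0.24 (-0.00 with normexp), and 10 lay above the median of all genes. Timp3, an inhibitor bound to the matrix, had 273, 179 and 290 (0.61) and was the only member of the list 1.5-fold apart in the deposited values. The 2 members below equality were Mmp3 and Mmp13. Mmp3 (stromelysin) had 1199, 1786 and 1116 (-0.58), and Mmp13, a collagenase, 535, 763 and 497 (-0.51). For Timp3, Mmp3 and Mmp13 vehicle was within 1.2-fold of CTLA-4-Ig and hIgG stood off, below for the inhibitor and above for the proteases. Mmp12 had 1032, 890.3 and 968 (0.21), and Mmp8 171, 151 and 134 (0.19). Mmp9, with 3.06, 2.20 and 3.40, and Mmp10, with 8.69, 4.4 and 6.10, were below the minimum.

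Immediate early genes, which respond to growth factors and stress within minutes, had a median of 0.27 over 13 kept (-0.00 with normexp), with 12 above the median of all genes. Dusp1, a phosphatase of MAP kinases, had 197, 121 and 175 (0.71, -0.20 with normexp). Hbegf, a ligand of the EGF receptor, had 85.7, 51.2 and 71.6 (0.74). Fos had 132, 109 and 88.0 (0.27), with both proteins above vehicle. In metabolism, Phgdh, the first enzyme of serine synthesis, had 84.5, 53.4 and 56.9 (0.66), and Gstm1, a glutathione transferase, 139, 81.2 and 102 (0.78, -0.02 with normexp). Mgll, the lipase of monoacylglycerols, had 55.6, 31.9 and 41.3 (0.80). For Phgdh the controls were level and CTLA-4-Ig was higher. The lists around these genes lay near the median of all genes, with 0.15 for serine synthesis and the ATF4 response, 0.08 for NRF2 targets, 0.06 for cholesterol synthesis, 0.01 for glycolysis and 0.00 for the respiratory chain. Ribosomal proteins had a median of 0.05, cell cycle genes 0.04 and reference genes 0.01. Hprt, a usual reference in quantitative PCR, had 1379, 1640 and 1595 (-0.25).

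Genes of histone H2B formed a set that no list held and that was noticed after the values were seen. All 9 kept H2bc genes lay above the median of all genes, with a median of 0.60 and a range from 0.30 to 0.72. Of the 9, 6 were at least 1.5-fold higher, against 0.61% of all probes. H2bc12 had 335, 203 and 258 (0.72), and H2bc7 had 937, 621.5 and 883 (0.59). Under the other scalings the median ran from 0.54 to 0.57, and with normexp it was 0.44 over 5 genes. The 7 kept genes of H2A had a median of 0.03, the 6 of H4 0.40 and the 6 of H3 0.15. The H2B genes are near-identical copies that lie in clusters, so that a probe for one may measure another, and they are uncertain as separate genes. Prl2c1 and Prl2c3, likewise close copies of a placental prolactin-related gene, had 0.75 and 0.68. Cell cycle genes were not shifted with them, with Mki67 at -0.12 and Top2a at 0.04.

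**Figure D4:**
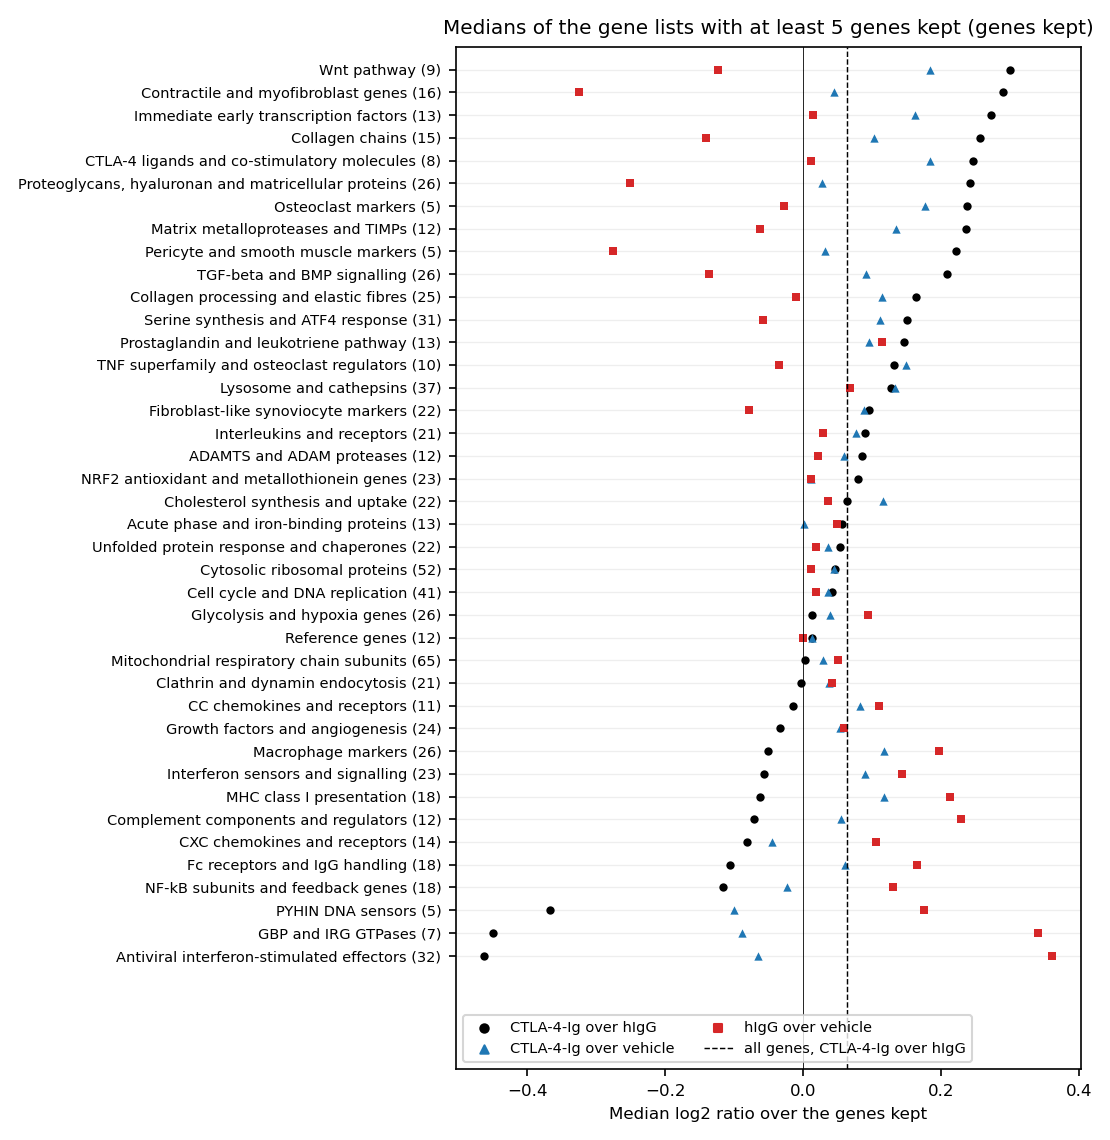
Median log2 ratios of the gene lists with at least 5 genes kept, for CTLA-4-Ig over hIgG (black), CTLA-4-Ig over vehicle (blue) and hIgG over vehicle (red), with the number of genes in parentheses and the median of all genes kept for the first ratio as a dashed line. Antiviral effectors were lowest (-0.46) and Wnt genes highest (0.30), and with the normexp correction these medians were -0.01 and 0.00.

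Of both proteins, hIgG was more often the one further from vehicle among the probes 1.5-fold apart. The 3 ratios of a probe share arrays, so that a low hIgG signal raises one ratio and lowers another, and the counts describe these arrays. In 61 of the 96 probes (63.5%) the hIgG signal was further from vehicle, in 36 of the 58 higher and 25 of the 38 lower probes. The same share over all kept probes was not computed, so that whether 63.5% differs from it is not known. It need not be even, since the SD against vehicle was 0.19 for CTLA-4-Ig and 0.17 for hIgG. Among kept genes of lists, hIgG was further in 16 of 65 of the respiratory chain, 16 of 52 ribosomal proteins and 24 of 32 antiviral effectors. It was further in 2 of 10 of the TNF list, 14 of 26 glycolysis genes, 9 of 15 collagen chains and 9 of 12 complement genes. The counts of most lists are not given here. Among the 58, vehicle lay within 1.2-fold of CTLA-4-Ig but not of hIgG in 32, near hIgG in 13, between both in 10 and outside both in 3. Among the 38, it was near CTLA-4-Ig in 19, near hIgG in 4 and between in 15. For the higher probes the median ratio to vehicle was 0.20 on CTLA-4-Ig and -0.47 on hIgG, and for the lower probes -0.25 and 0.49. The hIgG signal was at least 1.5-fold below vehicle for 13 of the 58 higher probes and at least 1.5-fold above it for 13 of the 38 lower. The CTLA-4-Ig signal was at least 1.5-fold above vehicle for 7 of the 58 and at least 1.5-fold below it for 3 of the 38.

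The order was not the same over the whole array. Among the probes with a signal of at least 25 on CTLA-4-Ig and vehicle, 57 were 1.5-fold higher on CTLA-4-Ig (0.602%) and 13 lower (0.137%), while for hIgG 29 were 1.5-fold above vehicle (0.308%) and 28 below (0.298%). Genes for which the controls were level and CTLA-4-Ig was apart were fewer but included Gabbr1, Olfr1412, Phgdh, Grem1, Rhob and Tgfb1i1 on the higher side. On the lower side they were Snapc1, with 77.2, 121 and 118 (-0.65), Abcb4, with 25.3, 38.5 and 39.0 (-0.61), Slco3a1, with 58.0, 87.5 and 80.5 (-0.59), and AI854703. Snapc1 is a subunit of the complex that starts transcription of small nuclear RNA genes, and Abcb4 and Slco3a1 are transporters of phospholipid and of organic anions. With the normexp correction hIgG was further from vehicle in 25.5% of the probes 1.5-fold apart, and among probes with a signal of at least 100 in 76.2%.

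**Figure D5:**
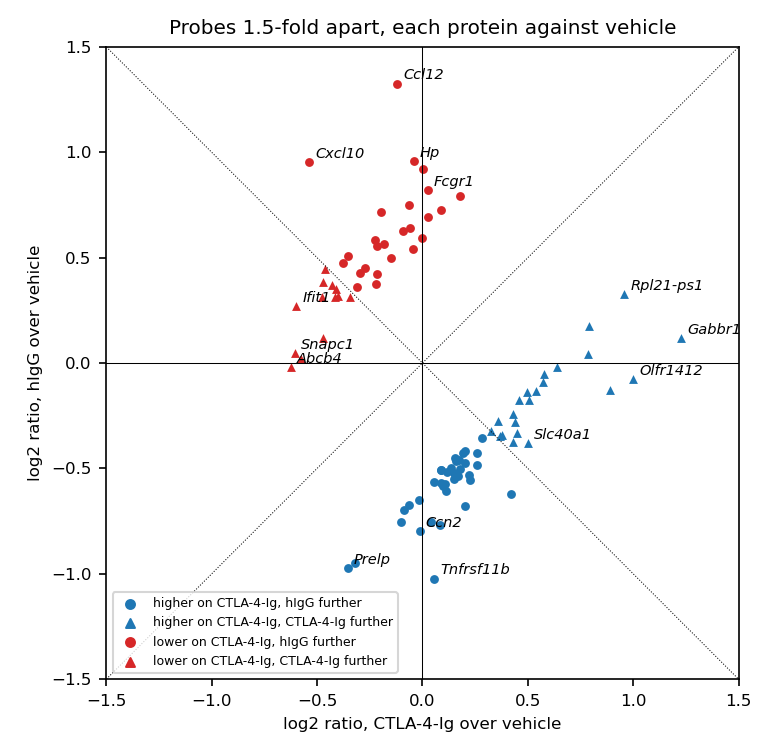
Log2 ratio of hIgG to vehicle against that of CTLA-4-Ig to vehicle for the 96 probes at least 1.5-fold apart between both proteins. Dotted diagonals mark equal distance from vehicle, circles are probes with hIgG further from vehicle (61) and triangles those with CTLA-4-Ig further (35), and the empty bands along the rising diagonal follow from the choice of probes.

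Probes of the same gene were not shown to agree more closely than other probes. Over 250 genes with several kept probes the range of log2 ratios among the probes of a gene had a median of 0.14 and a 90th percentile of 0.33, beside the SD of 0.18 over all kept probes. Tesk1, a kinase, differed most, with -0.77 for one probe and 0.08 for the other, and Eif3j1, a subunit of a translation initiation factor, had 0.65 and -0.01, so that the call of neither was shared by its other probe. Below the minimum the spread was wider. Among 8294 named probes detected on both arrays but under 25 on at least one, the SD of the log2 ratio was 0.33, and 76 were 2-fold higher and 35 lower on CTLA-4-Ig (1.34%). Repeated positive control spots within an array had a coefficient of variation from 6.30% to 13.5%, which does not cover the spread between cultures.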

How the data were processed

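RNA of each condition was labelled with Cy5 and hybridized to 1 mouse oligo array. The authors deposited the scanned intensity and a background column of every spot, and a table of normalized values on a linear scale, made by subtracting the mean of the blank spots and scaling the detected spots to a median of 25. That table gave the main values. Recomputed from the deposited intensity with 5% of the blank spots dropped at each end and detection at 2 SD, a rule inferred from the values, 19709 of 19710, 19178 of 19179 and 19101 of 19102 values matched within 0.06. Samples were grouped by the treatment in their labels, with 0 unused sample columns. No genome build or aligner applies to the arrays.

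Gene names came from the platform annotation, brought up to RefSeq (GRCm38.p6) by gene identifier (20556 probes) or accession (9), and 125 kept the platform symbol, while 2783 of 23473 were not named. A gene with several kept probes took the mean of the probe log2 ratios. The 49 gene lists, the members and the rule for named genes were chosen with earlier results of these data known. The rule named genes with a probe 2-fold apart, the 15 highest and 15 lowest genes, the kept co-stimulatory genes, in each list up to 6 members 1.5-fold apart in each direction or, with no such member, the 2 at either end, and the genes that the methods name for these cells. The text prints the main ones, and all other genes were chosen after their values were seen. Alternatives were quantile normalization, scaling by the 75th percentile, centring, the recomputed signals, normexp with an offset of 50, signal minimums of 10 and 100, the minimum on all 3 arrays, and the brightest probe. Python 3.11.15, numpy 2.4.6, pandas 2.3.3 and matplotlib 3.10.9 were used, with limma 3.58.1 in R 4.3.3 for normexp and quantile normalization. The counting was tested on simulated data. No test was run.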

Additional observations from a re-analysis of the deposited data

How the results depend on the processing

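No paired analysis was possible because there was 1 array of each condition, which also meant that no array could be left out. At least 2-fold, 5 probes were higher and 2 lower on CTLA-4-Ig. The count of higher probes was 3 with quantile normalization, with 75th percentile scaling and with the median log2 ratio set to 0, 9 with a signal of at least 10 and 0 with at least 100, and that of lower probes was 6 and 1 with those minimums. At 1.5-fold the 58 higher probes became 36, 34 and 35 under those 3 scalings, and 89 and 26 with the minimums of 10 and 100, while the 38 lower probes became 16 with a minimum of 100 and were 52, 54 and 55 under the scalings. The share with hIgG further from vehicle, 63.5%, was 76.2% with a minimum of 100. With normexp, whose background column follows the spot signal, 103 probes were 2-fold higher and 40 lower, 208 were 1.5-fold higher and 74 lower, and the share was 25.5%. Under normexp the direction relative to all genes turned for co-stimulatory molecules (-0.0329), GBP and IRG GTPases (0.00604), complement (0.00853), metalloproteases (-0.000289), TGF-beta and BMP (-0.00367), Wnt (0.00348) and immediate early genes (-0.00115), and for the genes Cd28 (-0.19), Dusp1 (-0.20), Gstm1 (-0.0182), Slc40a1 (-0.00736) and Tnfrsf11b (-0.00707). It also turned for the NF-kB list with a signal of at least 100 (0.11) and for the list of skeletal muscle and adipocyte genes with a signal of at least 10 (0.071). The cause was not tested. Of the other values of lists over all alternatives 394 stayed within 0.1 of the main one relative to all genes and 26 moved further. For named genes 1104 values stayed within 1 SD of hIgG over vehicle and 57 moved further. These totals include centring, which cannot move a list relative to all genes, and the recomputed signals, which repeat the deposited ones. With normexp alone 25 lists stayed, 16 moved and 7 turned, while 13 named genes stayed, 56 moved and 5 turned. The medians of the H2B genes and of other symbol families were added after seeing the data. The single array per condition and the wider spread of dim probes limit these values.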
